A study of Homo sapiens with 6 samples.

Results

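Single-cell messenger RNA of PC9 cells that, per the labels, received shRNAs against both KDM5A and KDM5B and then erlotinib was compared with that of PC9 cells given a scrambled shRNA. Both libraries were made by Drop-seq, in which single cells and barcoded beads share droplets and each captured transcript is counted by its unique molecular identifier (UMI). Cells were kept at 500 UMIs or more and at most 20% of UMIs from the mitochondrial genome, which left 152 of 604 barcodes labelled with both shRNAs and erlotinib and 263 of 706 barcodes labelled with the scrambled shRNA. These 415 cells are part of 2288 kept cells in the 6 libraries of the series. PC9 is a human non-small cell lung carcinoma line whose growth depends on an activated epidermal growth factor receptor (EGFR), and erlotinib blocks the kinase of that receptor.

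Per the labels, the cells with both shRNAs had been transduced with a pair of GFP-marked lentiviruses of the pLVTHM vector, and 2 µM erlotinib was given from day 5 after transduction for 1 day. The scrambled cells received control lentiviruses with a scrambled shRNA; the labels name no erlotinib for them and no day of harvest. After transduction both were kept in 10% serum. Other libraries of the series serve as context and were not matched in culture. Untreated cells and those with 6.25 µM CPI-455 and 2 µM erlotinib were in 5% serum. The KDM5A shRNA and KDM5A cDNA cells were in 10% serum, with 2 µM erlotinib from days 4 and 6 after transduction. Each condition is 1 library, so no test was made: the intervals given are exact 95% intervals of counting error alone, and PCR copies or handling of the cells are not in them. Erlotinib, the 2 shRNAs, the second virus and any difference in time after transduction cannot be told apart in this comparison.

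KDM5A and KDM5B belong to a family of enzymes that take methyl groups off a histone lysine found methylated at the starts of active genes, and so act as repressors at many of them. In PC9 cells KDM5A is known from the small population that survives EGFR inhibitors, the drug-tolerant persisters. When the receptor is blocked, signalling through RAS and the MAP kinases falls, cyclin D is lost and cells stop before DNA replication.

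The kept cells gave 725788 UMIs in the library labelled with both shRNAs and 1294422 UMIs in the scrambled library, with medians of 3762.5 and 3343 UMIs and of 1870 and 1815 genes per cell. Of barcodes with at least 500 UMIs, 17.8% and 1.13% exceeded the mitochondrial limit, and mitochondrial transcripts were 7.99% and 5.03% of the UMIs of kept cells. No cell barcode was shared between the libraries. The lung epithelial markers EPCAM, KRT7, KRT8, KRT18, KRT19, CDH1, MUC1 and EGFR were all detected, at 11404 CPM in sum in the library labelled with both shRNAs and 9053 CPM in the scrambled library. CPM are UMIs scaled to the same total in each library, so a level is a share of the captured transcripts and not an amount per cell. Marker lists of alveolar type 2 cells, fibroblasts, leukocytes and endothelium summed to at most 12.4 CPM in either library, and the 6 erythroid markers listed had no UMI in either.

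One of the targeted genes went against its label. KDM5A had 30 UMIs, or 41.3 CPM (27.9 to 59.0), in the library labelled KDM5A and KDM5B shRNA and 106 UMIs, or 81.9 CPM (67.0 to 99.0), in the scrambled library. Its log2 ratio was -0.99 (-1.62 to -0.39), in the direction of the label; with each cell weighted equally it was -0.39, and against untreated cells -1.55. KDM5B had 100 UMIs, or 138 CPM (112 to 168), in the library labelled KDM5A and KDM5B shRNA and 60 UMIs, or 46.4 CPM (35.4 to 59.7), in the scrambled library. That is a log2 ratio of 1.57 (1.10 to 2.06), higher and not lower. KDM5B stood at 151 CPM with KDM5A shRNA plus erlotinib, 102 CPM with CPI-455 plus erlotinib, 94.9 CPM with KDM5A cDNA plus erlotinib and 60.4 CPM in untreated cells, so all 4 erlotinib libraries were above both libraries without it. The library is therefore called the labelled double-shRNA library here. EGFR, which no shRNA targeted, had 273 CPM in the labelled double-shRNA cells and 350.0 CPM in the scrambled cells, a log2 ratio of -0.36 (-0.61 to -0.12) that was -0.050 when every cell was reduced to 1000 UMIs.

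**Figure D1:**
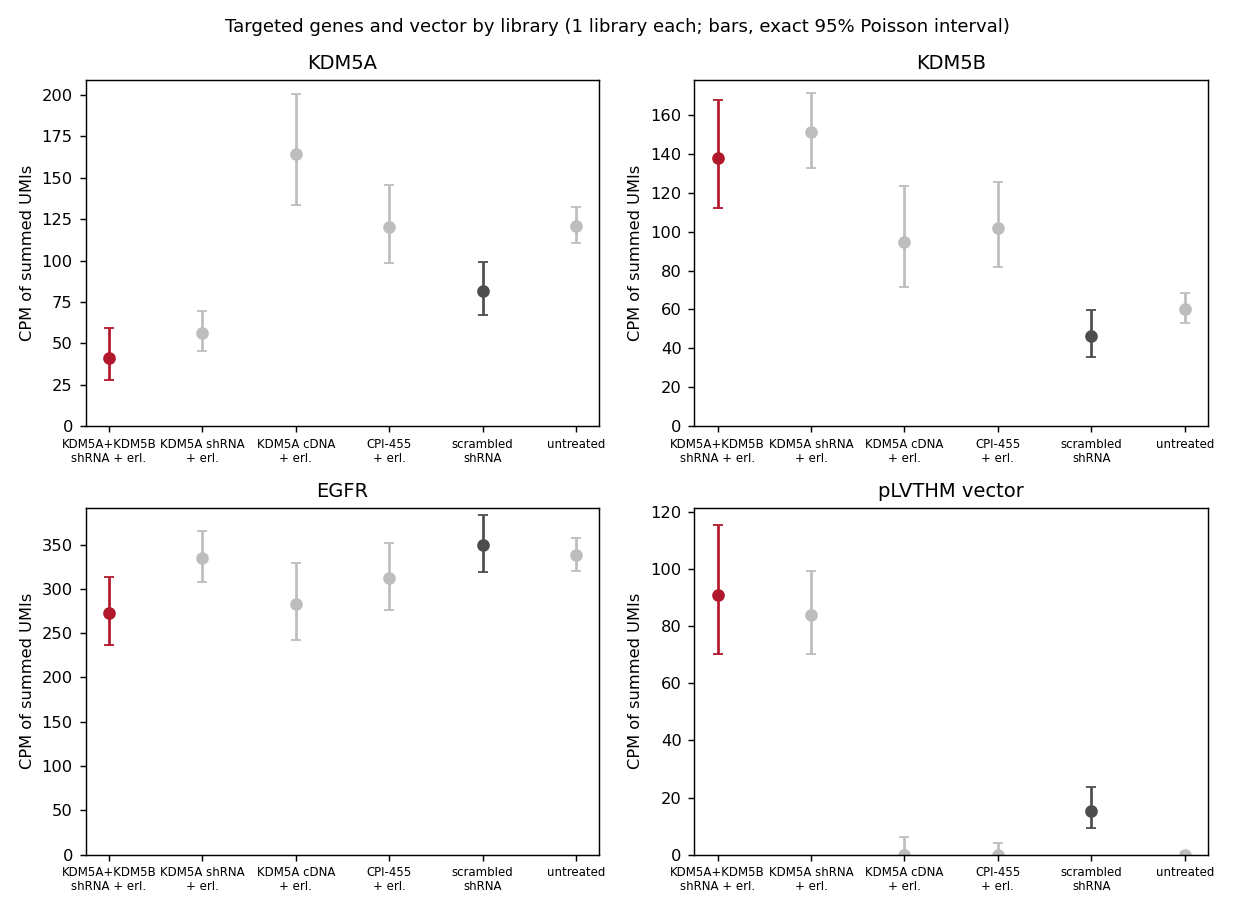
KDM5A, KDM5B, EGFR and the pLVTHM vector in the 6 libraries, as CPM of UMIs summed over kept cells with exact 95% Poisson intervals; each library is 1 point, with the labelled double-shRNA library in red and the scrambled library in dark grey. KDM5A is lowest in the labelled double-shRNA library at 41.3 CPM, KDM5B is at 138 CPM there against 46.4 CPM in the scrambled library, and the vector is at 0 in the untreated, CPI-455 and KDM5A cDNA libraries.

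Transcripts of the vector were found in every library labelled as carrying an shRNA. Transcripts assigned to pLVTHM came to 66 UMIs, or 90.9 CPM, in the labelled double-shRNA library and 20 UMIs, or 15.5 CPM, in the scrambled library, a log2 ratio of 2.56 (1.82 to 3.36). At least 1 vector UMI was found in 41 of 152 labelled double-shRNA cells (27.0%, 20.1% to 34.8%) and in 11 of 263 scrambled cells (4.18%, 2.11% to 7.36%). The KDM5A shRNA library, labelled with 1 virus, had 134 vector UMIs, or 83.9 CPM (70.3 to 99.4), in 73 of 374 cells (19.5%), and its interval overlaps that of the labelled double-shRNA library (70.3 to 116 CPM). The vector was at 0 UMIs in untreated cells and in the CPI-455 and KDM5A cDNA libraries. Among the labelled double-shRNA cells, KDM5B stood at 137 CPM in the 41 cells with a vector UMI and at 138 CPM in the 111 cells without one. KDM5A stood at 49.2 CPM (26.9 to 82.6) in the cells with a vector UMI and 36.2 CPM (20.7 to 58.9) in those without, and these intervals overlap. The cells with a vector UMI were also deeper, at a median of 5346 UMIs against 2753, and the part of depth in which cells showed the vector was not tested.

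Of 5931 genes compared, those whose mean CPM over the 2 libraries was at least 25, 821 (13.8%) were at least 2-fold higher in the labelled double-shRNA library and 1045 (17.6%) at least 2-fold lower. The median log2 ratio over all of them was -0.07, and 86 were at least 8-fold higher and 99 at least 8-fold lower. All 821 and all 1045 had counting intervals that lay on their own side of equality. The level for comparison and the 2-fold limit largely fix this in advance, so it adds no support. The genes highest relative to the scrambled library included the serum amyloids SAA1 and SAA2 and the keratin KRT17, and the lowest included the replication genes MCM6, RRM2 and CLSPN.

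**Figure D2:**
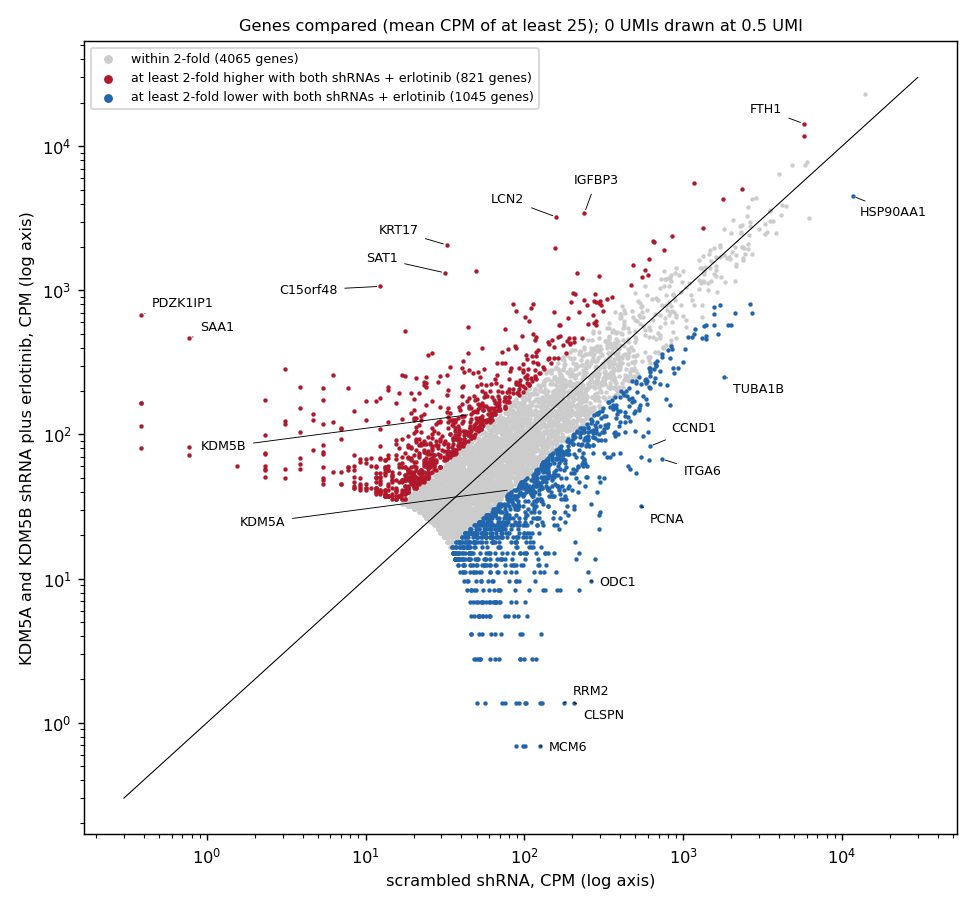
CPM of the 5931 genes compared in the labelled double-shRNA library (vertical, log axis) and the scrambled library (horizontal, log axis); each point is 1 gene, red where at least 2-fold higher (821) and blue where at least 2-fold lower (1045) in the labelled double-shRNA library. PDZK1IP1 and SAA1 lie at the upper left, with 679 and 464 CPM against 0 and 0.773 CPM, and MCM6, RRM2 and CLSPN at the bottom.

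PDZK1IP1, a small membrane protein of epithelia, stood furthest apart, with 493 UMIs (679 CPM) in the labelled double-shRNA cells and 0 UMIs in the scrambled cells. By the exact interval it was at least 237-fold higher. SAA1, a serum amyloid of the acute phase response, had 337 UMIs (464 CPM) in the labelled double-shRNA cells and 1 UMI (0.773 CPM) in the scrambled cells. Its neighbour SAA2 had 119 UMIs in the labelled double-shRNA cells and 0 in the scrambled cells, at least 56.6-fold higher by the same interval. The SAA1 and SAA2 transcripts are nearly identical, so how reads were divided between them is uncertain. GBP2, a guanylate-binding protein induced by interferon, likewise had 119 UMIs in the labelled double-shRNA cells and 0 in the scrambled cells. MMP7, the secreted protease matrilysin, had 83 UMIs in the labelled double-shRNA cells and 0 in the scrambled cells, at least 39.2-fold higher.

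KRT17, a keratin of basal and wounded epithelium, had 1498 UMIs (2064 CPM) in the labelled double-shRNA cells and 42 UMIs (32.4 CPM) in the scrambled cells, a log2 ratio of 5.99 (5.55 to 6.47). C15orf48, a small mitochondrial protein, had 1065 CPM in the labelled double-shRNA cells and 12.4 CPM in the scrambled cells. SAT1, the enzyme that acetylates polyamines for their breakdown and export, had 1321 CPM in the labelled double-shRNA cells and 31.7 CPM in the scrambled cells, a log2 ratio of 5.38 (4.93 to 5.87). OLR1, a receptor for oxidised lipoprotein, MUC20, a membrane mucin, and HEG1, a cell surface mucin-like protein, were at 285, 215 and 174 CPM in the labelled double-shRNA cells and at 3.09, 3.86 and 2.32 CPM in the scrambled cells. C8orf4, FILIP1L and the transcript CTD-2319I12.1 were also among the highest, at 258, 522 and 79.9 CPM in the labelled double-shRNA cells and 6.18, 17.8 and 0 CPM in the scrambled cells.

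At the other end, the replication helicase subunit MCM6 and the replication initiation factor MCM10 had no UMI in the labelled double-shRNA cells. They had 162 and 115 UMIs in the scrambled cells. By the exact intervals they were at least 24.3-fold and 17.2-fold lower in the labelled double-shRNA cells. CDCA7 and FAM111B, both cell cycle genes, were also at 0 UMIs in the labelled double-shRNA cells and had 131 and 127 UMIs in the scrambled cells. CLSPN, the checkpoint adaptor claspin, had 1 UMI in the labelled double-shRNA cells and 265 in the scrambled cells. RRM2, the regulated subunit of ribonucleotide reductase, had 1 UMI in the labelled double-shRNA cells and 230 in the scrambled cells, a log2 ratio of -7.01 (-12.32 to -4.52). FEN1, which trims lagging strand fragments, CDC6, which loads the helicase at origins, and GINS2, a part of the active helicase, had 1 UMI each in the labelled double-shRNA cells and 167, 161 and 133 UMIs in the scrambled cells. WDHD1 and MCM3, of the replication fork, MLF1IP, of the centromere, and ATAD2, a chromatin ATPase, had 1, 8, 2 and 6 UMIs in the labelled double-shRNA cells and 119, 325, 153 and 287 in the scrambled cells.

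The lowest also held a metabolic enzyme. ODC1, the first enzyme of polyamine synthesis, was at 9.64 CPM in the labelled double-shRNA cells and 261 CPM in the scrambled cells, a log2 ratio of -4.76 (-6.08 to -3.70). With SAT1 among the highest, the enzymes at the start of synthesis and of breakdown of polyamines stood at opposite ends. HMGA2, a chromatin protein of growing cells, had 1 UMI in the labelled double-shRNA cells and 130 in the scrambled cells.

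**Figure D3:**
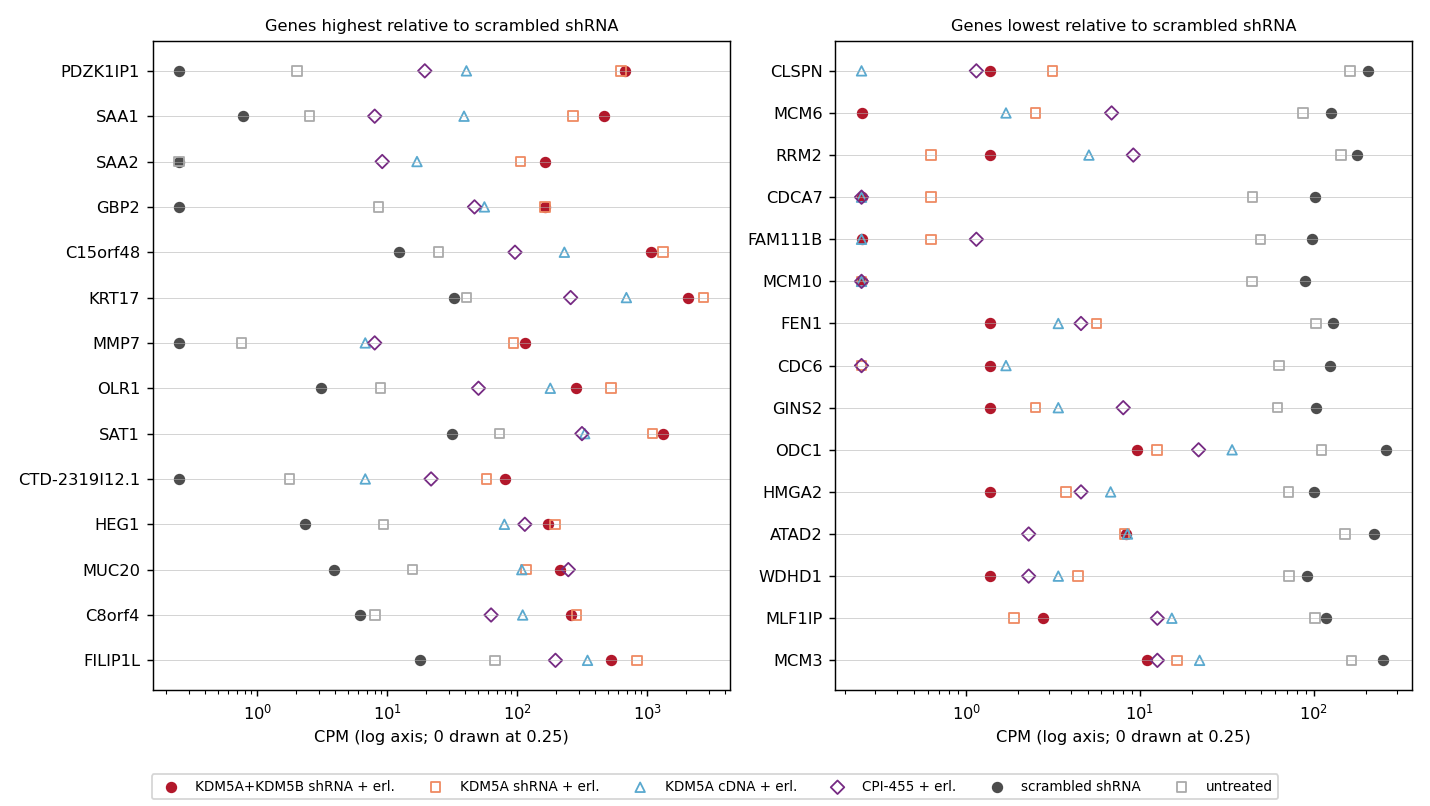
CPM (log axis) of the named genes highest (left) and lowest (right) in the labelled double-shRNA library relative to the scrambled library, in all 6 libraries; each point is 1 library and 0 is drawn at the left edge. The labelled double-shRNA library and the KDM5A shRNA library lie near each other for most of the highest genes, and for PDZK1IP1 both (679 and 627 CPM) lie above the KDM5A cDNA (40.7 CPM) and CPI-455 (19.5 CPM) libraries.

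For the highest genes the other erlotinib libraries give the scale. PDZK1IP1 was at 679 CPM in the labelled double-shRNA library, 627 CPM with KDM5A shRNA plus erlotinib, 40.7 CPM with KDM5A cDNA plus erlotinib, 19.5 CPM with CPI-455 plus erlotinib and 2.02 CPM in untreated cells. SAA1 was at 464 CPM in the labelled double-shRNA library, 269 CPM with KDM5A shRNA, 39.0 CPM with KDM5A cDNA, 8.01 CPM with CPI-455 and 2.53 CPM in untreated cells. KRT17 was at 2064 CPM in the labelled double-shRNA library and 2716, 691 and 258 CPM in the same 3 libraries, with 40.7 CPM in untreated cells. Not all of the highest genes had this order. MUC20 was at 215 CPM in the labelled double-shRNA library and 117, 108 and 247 CPM in those 3 libraries, so it was highest with CPI-455. HEG1 was at 174 CPM in the labelled double-shRNA library and 196, 79.6 and 114 CPM in them. RRM2, among the lowest genes, was at 1.38 CPM in the labelled double-shRNA library, at 0.626, 5.08 and 9.16 CPM with KDM5A shRNA, KDM5A cDNA and CPI-455, and at 144 CPM in untreated cells. Each of these libraries is single as well, and how they differ was not tested.

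Receptors and outputs of the blocked pathway were examined next. Of 21 genes of MAP kinase output analysed, 8 were compared, 6 of them at least 2-fold lower and 1 higher in the labelled double-shRNA library, with a median log2 ratio of -3.47. Among all genes compared, 17.6% were lower and 13.8% higher by that measure. CCND1, the G1 cyclin D, had 60 UMIs (82.7 CPM) in the labelled double-shRNA cells and 795 UMIs (614 CPM) in the scrambled cells, a log2 ratio of -2.89 (-3.30 to -2.51). PHLDA1 and the AP-1 subunit FOSL1 were both at 8.27 CPM in the labelled double-shRNA cells and at 134 and 131 CPM in the scrambled cells. DUSP4, a phosphatase that is itself induced by ERK and removes its activating phosphates, was at 6.89 CPM in the labelled double-shRNA cells and 100.4 CPM in the scrambled cells, a log2 ratio of -3.87 (-5.51 to -2.61). HBEGF, an EGFR ligand, had 0 UMIs in the labelled double-shRNA cells and 39 in the scrambled cells. Against the 3 counts that a 0 allows it was 7.29-fold lower. MYC did not differ beyond counting error, at 67.5 CPM in the labelled double-shRNA cells and 82.7 CPM in the scrambled cells, with a log2 ratio of -0.29 (-0.81 to 0.21).

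The receptor partner ERBB3 was at 124 CPM in the labelled double-shRNA cells and 29.4 CPM in the scrambled cells, a log2 ratio of 2.08 (1.52 to 2.67). Immediate early genes, many of which growth factors induce within minutes, lay on the other side of the scrambled level from the MAP kinase output genes. Of 10 compared, 7 were at least 2-fold higher and none lower in the labelled double-shRNA library, with a median of 1.89. FOS and JUNB, both AP-1 subunits, were at 135 CPM each in the labelled double-shRNA cells and at 22.4 and 41.7 CPM in the scrambled cells. Such genes also respond to dissociation of cells, which these data do not measure. FOXO targets and quiescence genes had 4 of 8 compared at least 2-fold higher and none lower, against 13.8% and 17.6% of all genes compared. They included YPEL3 (366 CPM in the labelled double-shRNA cells and 26.3 CPM in the scrambled cells), the transcriptional cofactor CITED2 (194 CPM in the labelled double-shRNA cells and 19.3 CPM in the scrambled cells) and the cyclin-dependent kinase inhibitor CDKN1B (152 CPM in the labelled double-shRNA cells and 44.8 CPM in the scrambled cells).

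Genes of DNA replication and division were lower without exception among those compared. All 30 S phase and origin genes compared, of 46 analysed, were at least 2-fold lower in the labelled double-shRNA library, with a median log2 ratio of -3.78. Together the 46 made up 507 CPM in the labelled double-shRNA cells and 5015 CPM in the scrambled cells, a log2 ratio of -3.31 (-3.46 to -3.15). PCNA, the sliding clamp of the replication fork, had 23 UMIs in the labelled double-shRNA cells and 703 in the scrambled cells, a log2 ratio of -4.10 (-4.77 to -3.50). TYMS, which makes thymidylate, had 10 UMIs in the labelled double-shRNA cells and 359 in the scrambled cells. The smallest difference among the 6 members with the most UMIs was that of DUT, the dUTPase, at 143 CPM in the labelled double-shRNA cells and 428 CPM in the scrambled cells. CDC45, CCNE2, E2F1, DTL, EXO1 and CDC25A lay under the level for comparison and had 0 UMIs each in the labelled double-shRNA cells and between 48 and 59 in the scrambled cells.

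All 44 G2/M genes compared, of 49 analysed, were also at least 2-fold lower, but by less, with a median of -2.28 and summed levels of 1540 CPM in the labelled double-shRNA cells and 6885 CPM in the scrambled cells. MKI67, the proliferation marker Ki-67, had 51 UMIs in the labelled double-shRNA cells and 450.0 in the scrambled cells, a log2 ratio of -2.31 (-2.75 to -1.89). TPX2, a spindle assembly factor, had 36 UMIs in the labelled double-shRNA cells and 412 in the scrambled cells. PTTG1, the securin that inhibits separase until sister chromatids part, was at 132 CPM in the labelled double-shRNA cells and 451 CPM in the scrambled cells. Tubulins split by gene: TUBA1B was at 252 CPM in the labelled double-shRNA cells and 1799 CPM in the scrambled cells, while TUBA4A differed less, at 262 and 363 CPM.

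Promoters of these genes are shown because cell cycle genes are known to carry E2F and CHR motifs there; promoters of the MAP kinase output genes and metallothioneins were not searched. The sequences are from RefSeq on GRCh38.p14, the 300 bases from 250 before to 50 after the first listed start, written on the gene's strand, with matches on either strand in capitals. CDC6 (chr17:40287629-40287928, plus strand) and MCM6 (chr2:135876394-135876693, minus strand) carry E2F motifs. PLK1 (chr16:23678639-23678938, plus strand) and CCNB2 (chr15:59104896-59105195, plus strand) carry the cell cycle homology region (CHR).
CDC6: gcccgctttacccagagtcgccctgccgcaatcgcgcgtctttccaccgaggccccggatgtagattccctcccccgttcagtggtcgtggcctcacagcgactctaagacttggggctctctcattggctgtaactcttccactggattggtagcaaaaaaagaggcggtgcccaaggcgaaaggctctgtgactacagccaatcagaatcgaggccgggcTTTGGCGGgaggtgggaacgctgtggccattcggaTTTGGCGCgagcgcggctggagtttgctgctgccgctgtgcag
MCM6: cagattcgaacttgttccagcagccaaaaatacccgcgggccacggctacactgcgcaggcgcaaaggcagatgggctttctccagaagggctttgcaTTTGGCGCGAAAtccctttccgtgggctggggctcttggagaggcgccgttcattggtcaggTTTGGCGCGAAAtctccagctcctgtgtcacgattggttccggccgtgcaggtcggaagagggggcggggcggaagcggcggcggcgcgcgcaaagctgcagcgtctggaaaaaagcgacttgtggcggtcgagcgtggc
PLK1: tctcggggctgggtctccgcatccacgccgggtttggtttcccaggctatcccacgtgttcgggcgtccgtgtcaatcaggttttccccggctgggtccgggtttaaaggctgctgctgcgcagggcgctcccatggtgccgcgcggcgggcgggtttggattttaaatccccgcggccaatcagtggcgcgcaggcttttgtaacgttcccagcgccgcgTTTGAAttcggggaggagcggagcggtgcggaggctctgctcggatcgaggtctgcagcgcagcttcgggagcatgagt
CCNB2: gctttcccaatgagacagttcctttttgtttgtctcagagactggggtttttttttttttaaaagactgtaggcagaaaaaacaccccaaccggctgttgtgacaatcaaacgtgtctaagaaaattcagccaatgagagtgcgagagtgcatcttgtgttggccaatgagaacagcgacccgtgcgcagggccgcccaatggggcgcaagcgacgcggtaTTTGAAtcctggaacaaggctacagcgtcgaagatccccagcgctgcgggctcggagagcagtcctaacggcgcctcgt

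An E2F motif, searched as TTTCCCGC, TTTGGCGC, TTTCGCGC or TTTGGCGG on both strands, was in 27 of 40 S phase promoters found in the table (67.5%), in 11.3% of 803 promoters of genes at least 2-fold lower in the labelled double-shRNA library and in 3.33% of 511 promoters of genes at least 2-fold higher. It was in 3.43% of all 27305 promoters and in 6.35% of the 4396 of genes compared. A CHR, searched as TTTGAA or TTCGAA on both strands, was in 31 of 43 G2/M promoters (72.1%) and in 16.6% of all promoters. A promoter counted once for a motif, also where matches overlap, as on the strands of TTTGGCGCGAAA in MCM6. CDC6, whose promoter holds an E2F word on each side of its start, had 1 UMI in the labelled double-shRNA cells and 161 in the scrambled cells. PLK1, the mitotic kinase, had 9 UMIs in the labelled double-shRNA cells and 78 in the scrambled cells, and CCNB2, a mitotic cyclin, 15 and 103. A match of letters is a description of the sequence and not a measured binding site.

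Inflammatory and mucosal defence genes lay well above the median of all genes. All 8 acute phase and mucosal defence genes compared, of 13 analysed, were at least 2-fold higher in the labelled double-shRNA library, with a median of 4.52. Their sum was 5453 CPM in the labelled double-shRNA cells and 244 CPM in the scrambled cells, a log2 ratio of 4.48 (4.32 to 4.65). LCN2, the lipocalin that binds bacterial siderophores, made up most of it, with 2342 UMIs (3227 CPM) in the labelled double-shRNA cells and 205 UMIs (158 CPM) in the scrambled cells. SLPI and PI3, protease inhibitors of mucosal surfaces, were at 397 and 209 CPM in the labelled double-shRNA cells and 54.1 and 7.73 CPM in the scrambled cells. Complement C3 was at 203 CPM in the labelled double-shRNA cells and 13.9 CPM in the scrambled cells. The sum of the list was 4161 CPM with KDM5A shRNA plus erlotinib and 863, 964 and 543 CPM with KDM5A cDNA plus erlotinib, with CPI-455 plus erlotinib and in untreated cells.

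NF-kB is a transcription factor held in the cytoplasm by an inhibitor that it induces itself. All 10 NF-kB feedback and inflammatory genes compared, of 16 analysed, were at least 2-fold higher in the labelled double-shRNA library, with a median of 2.71. NFKBIA, that inhibitor, was at 254 CPM in the labelled double-shRNA cells and 29.4 CPM in the scrambled cells, a log2 ratio of 3.11 (2.60 to 3.65). NFKBIZ, a nuclear cofactor of secondary NF-kB targets, was at 121 CPM in the labelled double-shRNA cells and 6.18 CPM in the scrambled cells. SOD2, the mitochondrial superoxide dismutase, was at 172 CPM in the labelled double-shRNA cells and 48.7 CPM in the scrambled cells. The neutrophil chemokines lay mostly under the level for comparison. CXCL1, CXCL6, CXCL2 and CXCL3 had 19, 18, 11 and 10 UMIs in the labelled double-shRNA cells and 0 in the scrambled cells, and IL8 had 28 UMIs in the labelled double-shRNA cells and 1 in the scrambled cells. CXCL1 was 11.3-fold higher and CXCL3 5.94-fold higher against the 3 counts that a 0 allows. These folds rest on few cells: at full depth CXCL1 and CXCL6 were found in 10 of 152 labelled double-shRNA cells each. CXCL2 and CXCL3 were found in 3 each.

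Promoters of CXCL1 (chr4:73869143-73869442, plus strand) and NFKBIA (chr14:35404700-35404999, minus strand), from the same RefSeq table, are shown for their matches to the NF-kB consensus in capitals.
CXCL1: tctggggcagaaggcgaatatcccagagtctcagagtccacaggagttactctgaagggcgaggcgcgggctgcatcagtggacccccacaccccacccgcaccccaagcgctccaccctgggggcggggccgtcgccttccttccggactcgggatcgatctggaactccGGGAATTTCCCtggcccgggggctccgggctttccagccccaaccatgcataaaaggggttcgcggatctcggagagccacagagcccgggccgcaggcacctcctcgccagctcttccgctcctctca
NFKBIA: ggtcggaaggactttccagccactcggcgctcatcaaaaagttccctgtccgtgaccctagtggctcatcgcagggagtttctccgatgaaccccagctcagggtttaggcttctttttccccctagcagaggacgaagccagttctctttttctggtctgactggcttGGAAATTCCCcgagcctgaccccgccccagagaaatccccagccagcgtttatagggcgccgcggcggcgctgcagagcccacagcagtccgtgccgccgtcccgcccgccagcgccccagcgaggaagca
The consensus was in 8 of 9 chemokine promoters found in the table and in 9 of 17 of the NF-kB list, against 10.8% of all promoters. It was in 3 of 11 promoters of the acute phase and mucosal defence list and in 12.4% of the 4396 of genes compared. Among genes at least 2-fold higher in the labelled double-shRNA library it was in 15.3%, and among those at least 2-fold lower in 12.3%. SAA1 and SAA2 were not among the promoters used here.

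Interferon response genes were mixed in size, with 3 of 7 compared at least 2-fold higher and none lower, against 13.8% and 17.6% of all genes compared. GBP1, a relative of GBP2, was at 127 CPM in the labelled double-shRNA cells and 4.64 CPM in the scrambled cells. ISG15, a ubiquitin-like protein, did not differ beyond counting error, at 62.0 CPM in the labelled double-shRNA cells and 49.4 CPM in the scrambled cells, with a log2 ratio of 0.33 (-0.26 to 0.90). B2M, the light chain of class I antigen presentation, was at 2214 CPM in the labelled double-shRNA cells and 644 CPM in the scrambled cells, a log2 ratio of 1.78 (1.66 to 1.91).

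**Figure D4:**
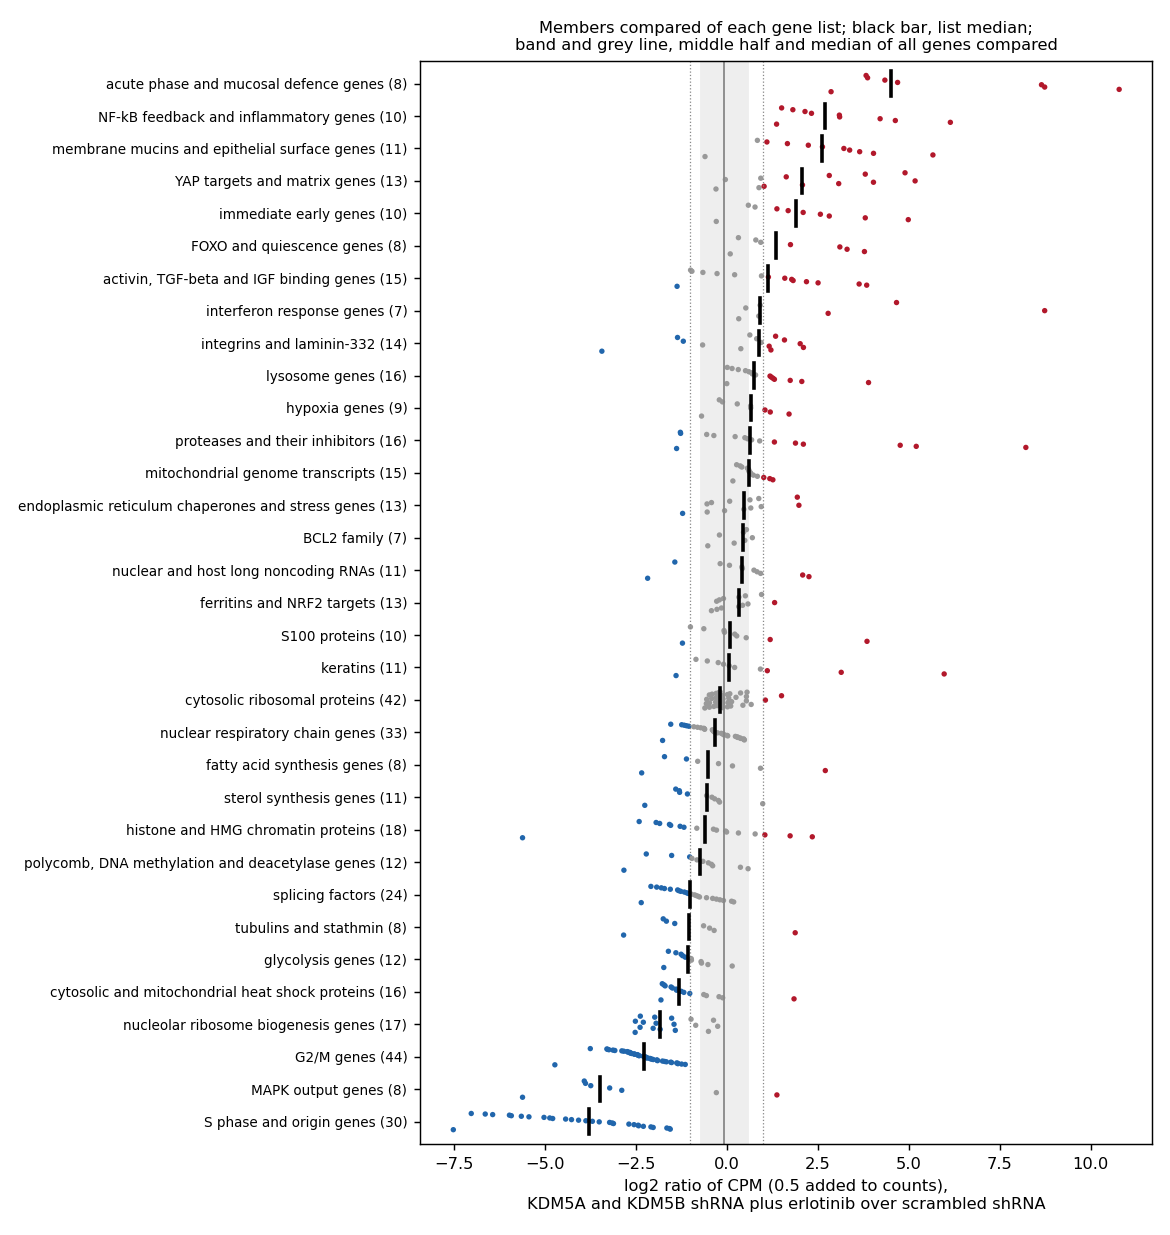
Log2 ratio of CPM (horizontal, 0.5 added to each count) of the members compared in each gene list with at least 7 of them, the labelled double-shRNA library over the scrambled library; each point is 1 gene, the black bar is the list median and the number beside a list is its members compared. Acute phase genes (median 4.52) are at the top, S phase and origin genes (median -3.78) at the bottom, and keratins (median 0.07) spread to both sides.

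Surface genes of epithelium differed from one another. Of 11 membrane mucins and epithelial surface genes compared, 9 were at least 2-fold higher and none lower, with a median of 2.63. The large mucin MUC4 was at 226 CPM in the labelled double-shRNA cells and 23.9 CPM in the scrambled cells, and ELF3, an epithelial transcription factor, at 411 and 86.5 CPM. EPCAM, an epithelial adhesion protein, was on the other side, at 663 CPM in the labelled double-shRNA cells and 1002 CPM in the scrambled cells. Keratins had 3 of 11 compared at least 2-fold higher and 1 lower, against 13.8% and 17.6% of all genes compared. KRT7, of simple epithelium, was at 5076 CPM in the labelled double-shRNA cells and 2342 CPM in the scrambled cells, while KRT8 was at 1174 and 1248 CPM.

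Adhesion genes lay on both sides of the scrambled level. ITGA6, the integrin chain of hemidesmosomes, had 49 UMIs (67.5 CPM) in the labelled double-shRNA cells and 950.0 UMIs (734 CPM) in the scrambled cells, a log2 ratio of -3.44 (-3.89 to -3.03). ITGB1, the common beta chain, was at 898 CPM in the labelled double-shRNA cells and 354 CPM in the scrambled cells. In all, 6 of 14 integrin and laminin genes compared were at least 2-fold higher and 3 lower, against 13.8% and 17.6% of all genes compared. Of 13 YAP target and matrix genes compared, 9 were at least 2-fold higher and none lower, with a median of 2.08. CYR61 and CTGF, secreted targets of YAP that are also immediate early genes, were at 536 and 178 CPM in the labelled double-shRNA cells and 75.7 and 12.4 CPM in the scrambled cells. TPM1, a tropomyosin of actin fibres, was at 1254 CPM in the labelled double-shRNA cells and 296 CPM in the scrambled cells. The kinase AXL, often named in EGFR inhibitor resistance, was at 84.0 CPM in the labelled double-shRNA cells and 104 CPM in the scrambled cells, a log2 ratio of -0.30 (-0.76 to 0.15).

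Secreted growth regulators were compared next. IGFBP3, which binds insulin-like growth factors, had 2495 UMIs (3438 CPM) in the labelled double-shRNA cells and 309 UMIs (239 CPM) in the scrambled cells, a log2 ratio of 3.85 (3.68 to 4.02). TGFB2, a transforming growth factor, was at 552.5 CPM in the labelled double-shRNA cells and 44.0 CPM in the scrambled cells. INHBA, the subunit of activin A, was at 609 CPM in the labelled double-shRNA cells and 107 CPM in the scrambled cells. Of 15 such genes compared, 8 were at least 2-fold higher and 1 lower. Among proteases and inhibitors, 6 of 16 (37.5%) were at least 2-fold higher and 3 (18.8%) lower, against 13.8% and 17.6% of all genes compared. TIMP3, a metalloprotease inhibitor, and KLK6, a kallikrein, were lower, at 114 and 342 CPM in the labelled double-shRNA cells and 298 and 823 CPM in the scrambled cells.

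Genes that serve growth were lower as groups. Of 17 nucleolar ribosome biogenesis genes compared, 12 were at least 2-fold lower and none higher, with a median of -1.83. The shares of all genes compared were 17.6% lower and 13.8% higher. NCL, the nucleolar protein nucleolin, was at 693 CPM in the labelled double-shRNA cells and 2730.2 CPM in the scrambled cells, and NOP56, of the box C/D ribonucleoproteins, at 97.8 and 560.1 CPM. Cytosolic ribosomal proteins, the products that this machinery assembles, were close to even: 40 of 42 compared lay within 2-fold, with a median of -0.18 and sums of 75759 CPM in the labelled double-shRNA cells and 82658 CPM in the scrambled cells. Splicing factors had 12 of 24 compared at least 2-fold lower and none higher, among them HNRNPAB at 161 CPM in the labelled double-shRNA cells and 824 CPM in the scrambled cells. Heat shock proteins had 11 of 16 at least 2-fold lower and 1 higher. HSP90AA1, the inducible cytosolic HSP90, was at 4504 CPM in the labelled double-shRNA cells and 11696 CPM in the scrambled cells, a log2 ratio of -1.38 (-1.43 to -1.32). The chaperonin subunit CCT6A was at 577 CPM in the labelled double-shRNA cells and 1909 CPM in the scrambled cells.

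Genes of energy metabolism and of sterol synthesis follow. Glycolysis genes had 6 of 12 compared at least 2-fold lower and none higher, among them LDHB at 496 CPM in the labelled double-shRNA cells and 1645 CPM in the scrambled cells and ENO1 at 701 and 2130 CPM. The 15 transcripts of the mitochondrial genome were all above 0 on the log2 scale, with a median of 0.62 and 3 of 15 at least 2-fold higher, against 13.8% of all genes compared. Nuclear respiratory chain genes had 6 of 33 (18.2%) at least 2-fold lower and none higher, with a median of -0.33, and that share is near the 17.6% of all genes compared. Kept cells of the labelled double-shRNA library also had the higher mitochondrial share given above, and its part in these values was not tested. Sterol synthesis genes had 5 of 11 compared at least 2-fold lower, with SQLE, the squalene epoxidase, at 17.9 CPM in the labelled double-shRNA cells and 88.1 CPM in the scrambled cells. Metallothioneins, small zinc-binding proteins, were lower: MT2A had 39 UMIs in the labelled double-shRNA cells and 652 in the scrambled cells, a log2 ratio of -3.23 (-3.73 to -2.76).

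Lysosome genes had 7 of 16 compared at least 2-fold higher and none lower, against 13.8% and 17.6% of all genes compared. The higher ones included PSAP, the precursor of the saposins, at 936 CPM in the labelled double-shRNA cells and 279 CPM in the scrambled cells. FTH1, the ferritin heavy chain, was at 14310.0 CPM in the labelled double-shRNA cells and 5745 CPM in the scrambled cells, a log2 ratio of 1.32 (1.27 to 1.36). The ferritin light chain FTL differed less, at 7417 and 5878 CPM. Of 13 ferritin and NRF2 target genes compared, FTH1 was the single member at least 2-fold higher and none was lower.

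Chromatin genes outside the KDM5 family were partly lower. EZH2, the methyltransferase of polycomb, was at 24.8 CPM in the labelled double-shRNA cells and 180.0 CPM in the scrambled cells, a log2 ratio of -2.86 (-3.64 to -2.17). DNMT1, which copies DNA methylation after replication, was at 46.8 CPM in the labelled double-shRNA cells and 219 CPM in the scrambled cells. Of 12 polycomb, DNA methylation and deacetylase genes compared, 4 (33.3%) were at least 2-fold lower and none higher, against 17.6% and 13.8% of all genes compared. None of 5 other histone demethylases compared passed 2-fold, KDM1A being at 251 CPM in the labelled double-shRNA cells and 321 CPM in the scrambled cells. Of survival genes, none of 7 BCL2 family genes compared passed 2-fold either way. Of 4 p53 targets compared, RPS27L alone was at least 2-fold higher, at 197 CPM in the labelled double-shRNA cells and 98.1 CPM in the scrambled cells. Most genes compared, 4065 of 5931, lay within 2-fold, so these counts do not set such small lists apart.

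Several other lists had members on both sides. Among all genes compared, 13.8% were at least 2-fold higher and 17.6% lower. Histone and HMG chromatin proteins had 3 of 18 compared (16.7%) at least 2-fold higher and 8 (44.4%) lower, with a median of -0.59. The variant histone H2AFZ was at 220.4 CPM in the labelled double-shRNA cells and 792 CPM in the scrambled cells, and HMGA1, a chromatin protein of growing cells, at 688 CPM in the labelled double-shRNA cells and 1552 CPM in the scrambled cells. S100 calcium-binding proteins had 2 of 10 compared at least 2-fold higher and 1 lower, S100A2 being at 161 CPM in the labelled double-shRNA cells and 375 CPM in the scrambled cells. Fatty acid synthesis genes had 3 of 8 compared at least 2-fold lower and 1 higher, with the elongase ELOVL6 at 12.4 CPM in the labelled double-shRNA cells and 65.7 CPM in the scrambled cells. Endoplasmic reticulum chaperones and stress genes had 2 of 13 compared (15.4%) at least 2-fold higher and 1 (7.69%) lower, near and under the shares of all genes compared. The main chaperone there, HSPA5, was at 1159 CPM in the labelled double-shRNA cells and 836 CPM in the scrambled cells, a log2 ratio of 0.47, opposite in sign to the cytosolic HSP90AA1 above. Hypoxia genes had 3 of 9 compared at least 2-fold higher and none lower.

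Of 142 processed pseudogenes compared, 61 were at least 2-fold higher in the labelled double-shRNA library and 0 lower. Among all 5931 genes compared the shares were 13.8% higher and 17.6% lower, and the 61 are part of the 821 higher genes. Processed pseudogenes carried 2.38% of UMIs in the labelled double-shRNA library and 1.31% in the scrambled library, and reads of a parent gene may be counted in its copies. The nuclear noncoding RNAs MALAT1 and NEAT1 were at 5575 and 835 CPM in the labelled double-shRNA cells and 1163 and 196 CPM in the scrambled cells. Against untreated cells the log2 ratio of MALAT1 was -0.0056.

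Cells were compared after each was reduced at random to 1000 UMIs, which left 124 labelled double-shRNA cells and 222 scrambled cells, while 28 and 41 kept cells were too shallow. At least 2 S phase UMIs were found in 14 of 124 labelled double-shRNA cells (11.3%, 6.31% to 18.2%) and in 201 of 222 scrambled cells (90.5%, 85.9% to 94.0%). Without the reduction in depth the shares were 48.7% and 96.2%. At least 2 G2/M UMIs were found in 26 of 124 labelled double-shRNA cells (21.0%, 14.2% to 29.2%) and in 209 of 222 scrambled cells (94.1%, 90.2% to 96.8%), or 53.3% and 98.1% at full depth. Neither list gave a UMI in 41 labelled double-shRNA cells (33.1%) and in 2 scrambled cells (0.901%). No other cell type is present to set the level of free RNA in droplets, and its part in these shares was not tested.

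The G2/M signal that was left lay in few cells. In the labelled double-shRNA library 7 of 124 cells had at least 10 G2/M UMIs, between 10 and 28, and they held 57.7% of the G2/M UMIs of the library. Of the scrambled cells 42 of 222 had that many, and they held 40.4% of the UMIs. The excess of the variance over counting noise, divided by the squared mean, was 5.84 for the G2/M list in the labelled double-shRNA cells and 0.319 in the scrambled cells. For the S phase list the same measure was 0.629 and 0.100. In the 7 cells, 6 also had at least 2 acute phase UMIs, as did 100 of the other 117. All 7 had at least 2 UMIs of the activin, TGF-beta and IGF binding list, as did 104 of the other 117. The median for keratins was 4 UMIs in the 7 cells and 13 in the other 117.

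**Figure D5:**
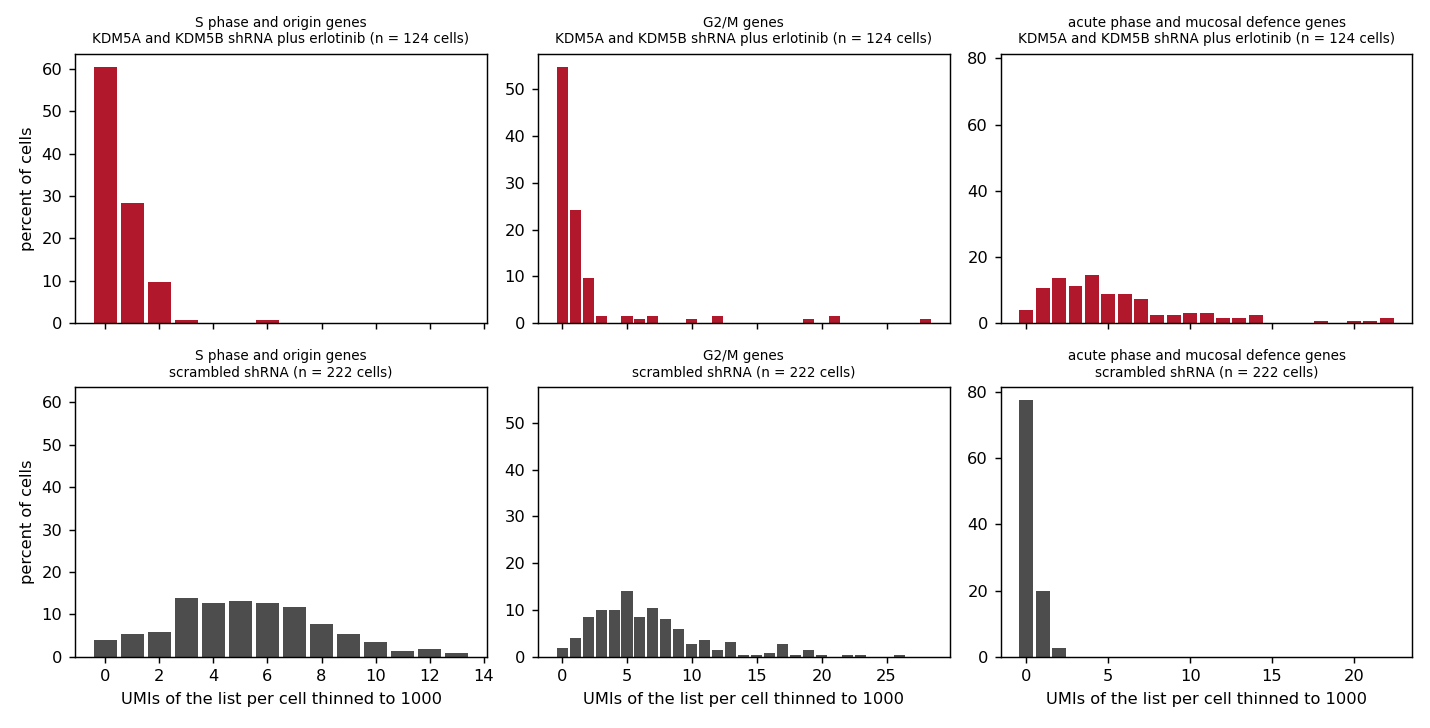
Share of cells (vertical, percent) by the number of UMIs of a gene list in the cell after reduction to 1000 UMIs (horizontal), with 124 labelled double-shRNA cells above and 222 scrambled cells below. S phase and G2/M UMIs are near 0 in most labelled double-shRNA cells with a thin tail to 28 G2/M UMIs, and acute phase UMIs reach 22 there and at most 2 in the scrambled cells.

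UMIs of acute phase and mucosal defence genes were found in most labelled double-shRNA cells. Barcodes under 500 UMIs in that library held this list at 3786 CPM, and the part of free RNA in these shares was not tested. At least 2 UMIs of the list were found in 106 of 124 labelled double-shRNA cells (85.5%, 78.0% to 91.2%) and in 6 of 222 scrambled cells (2.70%, 0.998% to 5.79%), or 92.1% and 26.2% at full depth. LCN2 alone was found in 109 labelled double-shRNA cells (87.9%) and 34 scrambled cells (15.3%). PDZK1IP1 was found in 53 labelled double-shRNA cells (42.7%, 33.9% to 51.9%) and in 0 of 222 scrambled cells, which by the limit of 3 counts allows a share of cells with a UMI at this depth of up to 1.35%. KRT17 was found in 65 labelled double-shRNA cells (52.4%) and 4 scrambled cells (1.80%). IGFBP3 was found in 106 labelled double-shRNA cells (85.5%) and 52 scrambled cells (23.4%). Activin, TGF-beta and IGF binding genes gave at least 2 UMIs in 89.5% of labelled double-shRNA cells and 44.6% of scrambled cells.

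Glycolysis and heat shock genes were also compared cell by cell. The median labelled double-shRNA cell had 7 glycolysis UMIs and the median scrambled cell 15, and 59.7% of the labelled double-shRNA cells lay under the 5th percentile of the scrambled cells. For heat shock proteins the medians were 11 and 26 UMIs, and 79.8% of the labelled double-shRNA cells lay under that percentile. ITGA6 was found in 6 labelled double-shRNA cells (4.84%) and 123 scrambled cells (55.4%).

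Some genes were uneven between the labelled double-shRNA cells. Among genes with a mean of at least 0.2 UMIs there, the excess variance was largest for PI3 (4.77), KRT13 (4.19), HIST1H2BD (3.40), RARRES1 (3.17) and MUC4 (2.97). PI3 was found in 19 labelled double-shRNA cells with up to 5 UMIs, and in 3 scrambled cells with 1 UMI each. KRT13, a keratin of stratified mucosa, had nearly the same level in both libraries, 372 CPM in the labelled double-shRNA cells and 355 CPM in the scrambled cells. It was found in 27 of 124 labelled double-shRNA cells (21.8%, 14.9% to 30.1%) and 64 of 222 scrambled cells (28.8%, 23.0% to 35.3%). These intervals overlap, while its excess variance was 4.19 and 0.769. Over the 602 genes at that mean in both libraries the median excess variance was 0.152 in the labelled double-shRNA cells and 0.113 in the scrambled cells.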

How the data were processed

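Per the labels, the cells were PC9 profiled by Drop-seq. The deposited files hold raw counts, whole UMI numbers per gene symbol and barcode with no normalization. STAR, FastQC and the build GRCh37.p13 (hg19) are named in the submitters' processing notes; versions, counting tool and barcode choice are not given in the sources used here. Barcodes with at least 500 UMIs and at most 20% mitochondrial UMIs were kept and their UMIs summed per gene. No doublet caller was run on this single line. Log2 ratios are of CPM with exact conditional Poisson intervals; medians and 2-fold counts add 0.5 to each count. Shares used cells thinned to 1000 UMIs, with exact binomial (Clopper-Pearson) intervals. A 0 was bounded at 3 counts per library, 4.13 CPM in the labelled double-shRNA library and 2.32 CPM in the scrambled library. Gene types came from GENCODE by symbol, matching 68.9% of 26195 symbols. Promoters came from RefSeq (GRCh38.p14), without coordinates from the files.

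The members, the 40 gene lists and 6 marker lists were chosen with earlier results of these data known. Named were KDM5A, KDM5B and EGFR, the 15 highest and 15 lowest genes by the near bound of the interval, up to 6 members per list with the most UMIs and members at 0 in 1 library; PLK1 and CCNB2 were added for their promoters after their values were seen. Values of some genes that this rule names are not reported here, though they count in their lists. Intervals and thinning were tested on simulated data. Python 3.11.15, numpy 2.4.6, pandas 2.3.3, scipy 1.17.1 and matplotlib 3.10.9 were used. Alternatives covered filters, scaling, weighting of cells, depth, barcodes ending in N and the untreated library in place of the scrambled one.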

Additional observations from a re-analysis of the deposited data

How the results depend on the processing

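With 1 library a side, no replicate could be left out, and counting intervals say nothing of how a second culture would differ. No paired analysis was possible because each condition has 1 library and no replicate number. The count of genes at least 2-fold higher was 1460 at a mean CPM of at least 10 and 493 at one of at least 50, and that of lower genes 1629 and 633. Under the other 12 settings for filters, depth, scaling and reference the counts lay between 676 and 1158 and between 926 and 1139. Similar counts did not mean the same genes. With the untreated library as reference, 488 of the 821 higher and 653 of the 1045 lower genes were called again. In cells thinned to 1000 UMIs, 612 and 735 were. The EGFR log2 ratio was -0.050 in cells thinned to 1000 UMIs. The difference in the share of cells, labelled double-shRNA minus scrambled, depended on depth and on the UMIs required. For S phase it was -62.2 percentage points at 500 UMIs, -70.1 at 2000, -56.4 with 1 UMI required and -47.5 without thinning. For G2/M it was -53.0 with 1 UMI and -44.8 without thinning. For acute phase it was 57.7 at 500 UMIs, 73.4 with 1 UMI, 71.8 with 3, 65.9 without thinning and 73.8 without barcodes ending in N. A change of sign was counted only where the main log2 ratio was at least 1 in size. By that rule 2 of the 263 named genes reported changed sign, and the cause was not tested. These were PHLDA3, at -0.52 with cells weighted equally, and MALAT1, at -0.0056 against untreated cells. None of 37 list medians did so over 11 settings each, and medians nearer 0 could not be counted. Values further from the main one than counting error were 330 of 2893 for named genes and 176 of 407 for list medians. Depth limits single genes: 1 UMI is 1.38 CPM in the labelled double-shRNA library and 0.773 CPM in the scrambled library.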

Other observations

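Barcodes left out for mitochondrial content differed in make-up from kept cells. In the labelled double-shRNA library the 33 barcodes over the limit held 44193 UMIs, with acute phase genes at 1674 CPM against 5453 CPM in kept cells and keratins at 5725 CPM against 13253 CPM. Cytosolic ribosomal proteins were at 14369 CPM there against 75759 CPM in kept cells, and the nuclear RNA MALAT1 at 33376 CPM against 5575 CPM. The scrambled library had 3 such barcodes, with 1899 UMIs. Barcodes under 500 UMIs in the labelled double-shRNA library, 419 with a median of 93 UMIs, held S phase genes at 564 CPM and acute phase genes at 3786 CPM. The 440 in the scrambled library, with a median of 198 UMIs, held them at 4156 and 224 CPM.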
